A study of Bos taurus with 16 samples.

Results

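The transcripts of 10 antioxidant enzymes were followed from the mature oocyte to the blastocyst in cattle (Bos taurus): the superoxide dismutases SOD1 and SOD2, catalase (CAT), the glutathione peroxidases GPX1 and GPX4, and the peroxiredoxins PRDX1, PRDX2, PRDX3, PRDX5 and PRDX6. They were taken by name from the 27393 loci of the RNA-Seq table. All 10 were found, each at 1 locus. The samples were oocytes and embryos that had developed in vivo, with no treated group, 2 at each of 8 stages and 16 in all: the mature oocyte arrested at metaphase of the second meiotic division (MII), the 2-cell (2C), 4-cell (4C), 8-cell (8C) and 16-cell (16C) embryo, the early morula (EM), the compact morula (CM) and the blastocyst (BL). Every library was made from the amplified RNA of 1 oocyte or embryo, so a difference between the 2 samples of a stage is a difference between 2 individuals or between 2 amplifications. MII, 2C and 4C (6 samples) precede and the other stages (10 samples) follow embryonic genome activation (EGA), when the embryo begins to transcribe its own genome on a large scale and the RNA stored by the oocyte is replaced.

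Reactive oxygen is removed in steps. Superoxide, formed mainly when electrons leak from the respiratory chain, is turned into hydrogen peroxide by the superoxide dismutases. Hydrogen peroxide is then broken down by catalase without a reducing partner, by the glutathione peroxidases at the expense of glutathione, and by most peroxiredoxins at the expense of thioredoxin. The mature oocyte is transcriptionally silent, and the early cleavage embryo relies largely on its stored transcripts and proteins.

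Levels are given as CPM, the reads of a locus per 1000000 reads of its library. They are not divided by transcript length, so they compare a gene between stages and not genes with each other. They are also shares of a library and not amounts per embryo: more cells with the transcript and more transcript per cell cannot be told apart. Libraries held 607672 to 3379426 reads, and a limit of 3 reads corresponded to 0.888 to 4.94 CPM. The members held few reads, from 103 for PRDX5 to 2210 for PRDX2 over all 16 samples, and SOD2, CAT, PRDX1 and PRDX2 had at least 3 reads in every sample. The stage labels were compared with marker genes. Summed oocyte markers were 7341 and 10044 CPM at MII and 7.73 to 56.4 CPM from 16C on, and summed blastocyst markers were 1253 and 1310 CPM at BL against 13.0 to 20.6 CPM before EGA and 155 to 729 CPM from 8C to CM. Members of the blastocyst list differed: IFNT2 had a mean of 43.9 CPM at 16C and 2.20 CPM at BL, GATA6 of 388 CPM at EM and 166 CPM at BL, and CDX2, a defining gene of the outer cell layer of the blastocyst, did not exceed 1.24 CPM in any sample. The 8C samples differed: oocyte markers summed to 26.0 CPM in replicate 1 and to 1414 CPM in replicate 2. Most of these high sums was 1 gene, H1FOO, with a mean of 8400 CPM at MII and 1347 CPM in 8C replicate 2. Differences between 8C and another stage are therefore also given without replicate 2. Blood cell markers summed to 0 CPM before EGA and to at most 14.8 CPM after it, with the haemoglobin genes HBA and HBB listed at 0 in all 16 samples.

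GPX4, GPX1, PRDX2, PRDX1 and PRDX6 differed between the 8 stages, and SOD1, SOD2, CAT, PRDX3 and PRDX5 did not pass the test. The genes that passed followed several courses. GPX4 was listed at 0 at MII and was higher in every sample after EGA than in any before it. PRDX2 was lowest at MII and highest at BL, GPX1 had few reads before 16C, and PRDX1 and PRDX6 stood apart at BL. Levels of the 10 genes added together were 72.4 ± 30.3 CPM at MII (SD, n = 2), 237 ± 9.68 CPM at 2C, 293 ± 151 CPM at 8C, 344 ± 205 CPM at CM and 1135 ± 70.6 CPM at BL. The 14 samples before BL reached at most 489 CPM. On the deposited scale, where counts are divided by a size factor in place of the total, the sum was 167 ± 85.9 at MII, 287 ± 4.28 at 2C and 1197 ± 37.2 at BL, so the steps from MII were smaller. Tests were run on the deposited scale, and the median of all loci for 2C against MII was 0.15 log2 there and 0.77 log2 on the total-read scale of CPM. Adjusted p-values from limma over 9670 loci, a linear model on the log2 scale that pools the spread of all stages, were 1.19e-05 for GPX4, 0.000401 for PRDX2, 0.00146 for GPX1, 0.00413 for PRDX6 and 0.00461 for PRDX1. These 5 of 10 members compare with 66.7% of all loci that passed the same test and under total-read scaling 7 of 10 members passed, PRDX3 and PRDX5 in addition, and 6685 of 9670 loci. PRDX6 lost the call without BL replicate 1 (adjusted p = 0.0597 from limma).

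**Figure D1:**
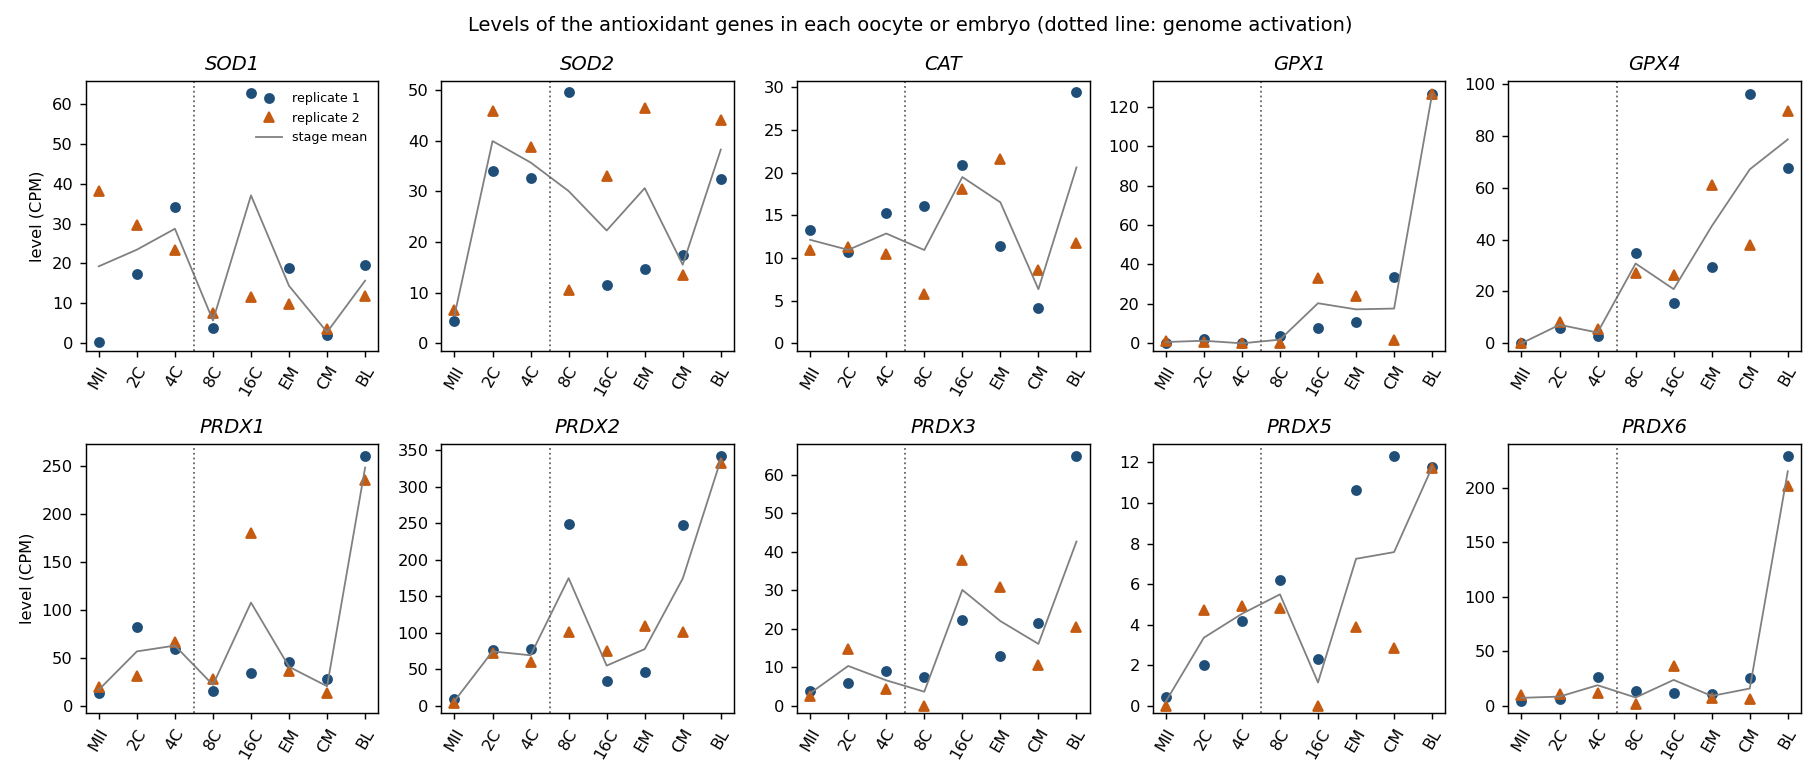
CPM of each of the 10 genes (1 panel a gene, each with its own vertical scale) in the 16 samples, by stage; circles (replicate 1) and triangles (replicate 2) are single oocytes or embryos, lines join the means of the 2 samples of a stage, and the dotted line marks EGA. For GPX1, PRDX1, PRDX2 and PRDX6 both BL samples lie above all others, and both GPX4 samples at MII lie at 0.

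Of the superoxide dismutases, SOD1 encodes the copper and zinc enzyme of the cytosol. At MII its levels were 0.443 CPM (1 read) and 38.1 CPM (87 reads), at 2C 17.3 and 29.6 CPM, at 4C 34.0 and 23.4 CPM, and at 8C 3.71 and 7.70 CPM. They were 62.6 and 11.5 CPM at 16C, 18.8 and 9.97 CPM at EM, 2.05 and 3.57 CPM at CM, and 19.6 and 11.7 CPM at BL. The 2 oocytes thus spanned most of the range of the gene, and both 2C and both 4C samples lay above both samples of 8C and of CM. Across the stages the adjusted p was 0.326 (limma). After against before EGA the log2 difference was -1.04 ± 0.72 (SE, adjusted p = 0.207 from limma). Without MII replicate 1 the difference was -1.77 with an adjusted p of 0.0148, and without MII replicate 2 it was -0.65 with an adjusted p of 0.449, while the stage effect passed without either MII sample (adjusted p = 0.0211 and 0.0187 from limma).

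SOD2, the manganese enzyme of the mitochondrial matrix, was measured at 4.43 and 6.57 CPM at MII, 33.9 and 45.9 CPM at 2C, and 32.6 and 38.7 CPM at 4C. From 8C on the samples were 49.5 and 10.6 CPM at 8C, 11.6 and 32.9 CPM at 16C, 14.7 and 46.5 CPM at EM, 17.4 and 13.6 CPM at CM, and 32.4 and 44.0 CPM at BL. Both oocytes were below all 14 embryos in CPM, while every other stage overlapped its neighbour in the order of the means. On the deposited scale MII still had the lowest mean but overlapped other stages, and the log2 difference of 2C against MII was 1.89 ± 0.75 (adjusted p = 0.209 from limma). Before and after EGA the means were 27.0 ± 17.3 CPM (n = 6) and 27.3 ± 15.5 CPM (n = 10), with a log2 difference of -0.24 ± 0.46 (adjusted p = 0.662 from limma) that turned to 0.21 when libraries were scaled by their total reads. The stage effect passed without 8C replicate 2 (adjusted p = 0.041 from limma), the library with oocyte markers.

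CAT encodes the peroxisomal enzyme that splits hydrogen peroxide into water and oxygen. It ranged from 10.4 to 15.3 CPM with a median of 11.1 CPM before EGA, and spread from 4.10 to 29.5 CPM with a median of 13.9 CPM after it. The samples at CM, 4.10 and 8.57 CPM, were low and those at 16C, 20.9 and 18.1 CPM, were high, but BL held both 29.5 and 11.7 CPM, and each stage overlapped the next in the order of the means. No comparison passed for CAT: for the stage effect limma gave an adjusted p of 0.393, and the log2 difference after against before EGA was -0.35 ± 0.42 (adjusted p = 0.473 from limma), with the sign turned under total-read scaling (0.10).

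The glutathione peroxidases had the largest differences of the members across EGA. GPX4 reduces lipid peroxides within membranes and is a selenoprotein, as is GPX1. It was listed at 0 in both oocytes and measured at 5.99 and 8.29 CPM at 2C and 2.78 and 5.53 CPM at 4C. From 8C on it was at 34.6 and 26.9 CPM, followed by 15.5 and 26.3 CPM at 16C, 29.4 and 60.9 CPM at EM, 96.4 and 37.8 CPM at CM, and 67.8 and 89.5 CPM at BL. The lowest sample after EGA, 15.5 CPM, was above the highest before it, 8.29 CPM, and GPX4 was the only member whose periods did not overlap. All samples after EGA lay above all before for 18.4% of the loci tested between the periods, and below them for 9.7% and for 0 members. In the order of the stage means, 4C, 2C, 16C and 8C were each apart from the next lower stage, and the 4 highest means (BL, CM, EM and 8C) overlapped.

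GPX1, the cytosolic and mitochondrial enzyme that reduces hydrogen peroxide, was close to the limit of detection in the first 4 stages. It was at 0 and 1.31 CPM at MII, 2.00 and 0.592 CPM at 2C, 0 in both 4C samples, and 3.71 and 0 CPM at 8C, no more than 3 reads in any of these 8 libraries. At 16C it was measured at 7.73 and 32.9 CPM, at EM at 10.6 and 23.8 CPM, and at CM at 33.8 and 1.43 CPM. Both BL samples, at 127 and 126 CPM, were above all others, and the 2 CM embryos lay at opposite ends of the levels between. Whether the few reads at the early stages come from GPX1 transcripts cannot be read at this depth.

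The typical peroxiredoxins PRDX1, PRDX2 and PRDX3 use a pair of cysteines and are reduced by thioredoxin; PRDX1 and PRDX2 act mainly in the cytosol and are close in sequence. How reads that map to several loci were treated is not given in the sources used here, so a share of their reads may be exchanged, and for every member reads shared with near-identical copies such as processed pseudogenes cannot be told apart. PRDX1 was measured at 13.7 and 20.2 CPM at MII, 82.5 and 31.4 CPM at 2C, 59.0 and 67.0 CPM at 4C, and 16.1 and 27.9 CPM at 8C. It was at 34.8 and 181 CPM at 16C, 45.8 and 36.0 CPM at EM, 27.7 and 13.6 CPM at CM, and 261 and 236 CPM at BL. Both BL samples exceeded all other samples, the nearest being 16C replicate 2, and the samples of MII, 8C and CM overlapped at the lower end. In 16C replicate 2 the blastocyst markers summed to 729 CPM, beside 191 CPM in 16C replicate 1. The marker KRT8 was at 102 and 3.86 CPM in these 2 libraries, and a link to PRDX1 was not tested.

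PRDX2 was at 9.75 and 3.94 CPM at MII, 77.2 and 72.2 CPM at 2C, and 78.5 and 60.2 CPM at 4C. The next stages were uneven, with 249 and 101 CPM at 8C, 34.8 and 75.7 CPM at 16C, 46.6 and 109 CPM at EM, and 248 and 101 CPM at CM. At BL the samples were at 342 and 332 CPM. The MII samples were below and the BL samples above all others in CPM, and the 6 stages between overlapped in the order of their means. On the deposited scale the MII samples remained the lowest, but 8C replicate 1 was above both BL samples.

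PRDX3, the peroxiredoxin of mitochondria, was measured at 3.99 and 2.63 CPM at MII, 5.99 and 14.8 CPM at 2C, 9.03 and 4.30 CPM at 4C, and 7.42 and 0 CPM at 8C. After 8C it was at 22.4 and 37.8 CPM at 16C, 13.1 and 31.0 CPM at EM, 21.5 and 10.7 CPM at CM, and 64.8 and 20.5 CPM at BL. In the order of their means each stage overlapped the next, and the stage effect missed the threshold (adjusted p = 0.0611 from limma). It passed when libraries were scaled by their total reads (adjusted p = 0.0216), with a pseudocount of 5 (0.0338) and without 8C replicate 1 (0.00345).

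PRDX5, an atypical peroxiredoxin found in mitochondria, peroxisomes and the cytosol, was the least covered member. It was at 0.443 and 0 CPM at MII (1 read in all), between 2.00 and 4.92 CPM in the 4 samples of 2C and 4C, at 6.19 and 4.81 CPM at 8C, and at 2.32 and 0 CPM at 16C. Later samples were at 10.6 and 3.88 CPM at EM, 12.3 and 2.86 CPM at CM, and 11.8 and 11.7 CPM at BL. The 2 blastocysts agreed closely, but 12 and 8 reads stand behind these values, and CM replicate 1 was as high. For the stage effect limma gave an adjusted p of 0.0532, and 0.024 under total-read scaling. It also passed without 16C replicate 1 (0.0295) or CM replicate 2 (0.0448). PRDX5 had too few reads for the comparison of the periods.

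PRDX6 uses a single cysteine, is reduced with glutathione rather than thioredoxin, and also has a phospholipase activity. It was at 4.87 and 10.1 CPM at MII, 5.99 and 11.2 CPM at 2C, 26.4 and 11.7 CPM at 4C, 13.6 and 1.92 CPM at 8C, 11.6 and 36.2 CPM at 16C, 10.6 and 7.75 CPM at EM, and 25.6 and 6.42 CPM at CM. At BL it reached 229 and 201 CPM. All 14 earlier samples were at or below 36.2 CPM, and the 7 stages before BL overlapped in the order of their means. In all, 4 members (GPX1, PRDX1, PRDX2 and PRDX6) had both BL samples above the other 14, as had 9.57% of the 9670 loci in CPM, and on the deposited scale 3 had, without PRDX2, against 8.88%. Conversely GPX4, PRDX2 and SOD2 had both MII samples below the other 14, as had 13.1% of loci, and on the deposited scale GPX4 and PRDX2, against 7.65%. For 0 members were both MII samples above the other 14 (1.46% of loci) or both BL samples below them (1.62%).

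**Figure D2:**
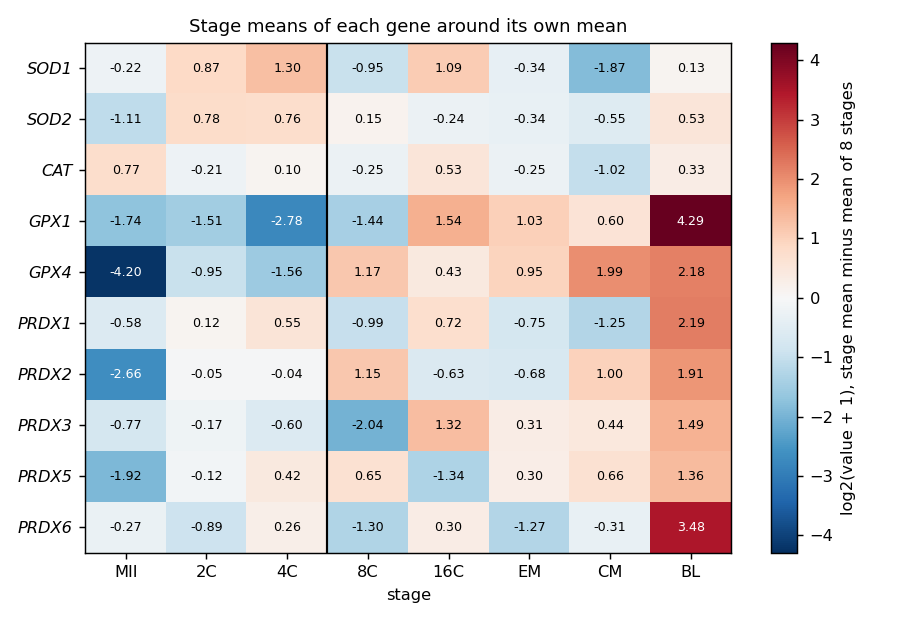
Stage means of log2(deposited value + 1) of the 10 genes (rows) at the 8 stages (columns), each gene centred on the mean of its 8 stages, with red above and blue below that mean; the black line marks EGA. The highest entries are GPX1 (4.29) and PRDX6 (3.48) at BL and the lowest are GPX4 (-4.20) at MII and GPX1 (-2.78) at 4C.

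The step from the oocyte to the 2-cell embryo asks which transcripts gain in share before the main activation of the genome. GPX4 and PRDX2 rose and no member fell. GPX4 rose by a log2 difference of 3.25 ± 0.64 (adjusted p = 0.0244 from limma); against a limit of 3 reads in each oocyte library, the 37 reads of the 2C samples amount to a level at least 5.40-fold higher in CPM and at least 2.91-fold higher on the deposited scale. PRDX2 rose by 2.61 ± 0.61 (adjusted p = 0.0485 from limma), from 14.9 ± 7.59 to 90.4 ± 1.94 in deposited values (n = 2 each), and its CPM, at 6.85 ± 4.10 and 74.7 ± 3.54, lay further apart. The 2 of 10 members compare with 1.42% of all loci called in either direction, 1.2% higher and 0.217% lower, where 84.7% of the calls were higher, and 98.2% under total-read scaling. The other members, with SOD2 as above, did not pass: SOD1 (1.08 ± 1.32), CAT (-0.98 ± 0.73), GPX1 (0.24 ± 1.17), PRDX1 (0.71 ± 0.66), PRDX3 (0.59 ± 0.98), PRDX5 (1.79 ± 0.90) and PRDX6 (-0.62 ± 0.88), with adjusted p of 0.338 to 0.994 from limma. Without adjustment, 3 members were higher and 0 lower at p under 0.05, and 0 were called lower by edgeR or DESeq2. The call of GPX4 was lost without 2C replicate 2 (adjusted p = 0.127), MII replicate 1 (0.0508) or MII replicate 2 (0.108) and with a pseudocount of 5 (1.44, adjusted p = 0.157), and that of PRDX2 in 14 of 16 fits with 1 sample left out (adjusted p = 0.0526 to 0.247 from limma). The oviduct gene OVGP1 was at 75.2 CPM in 2C replicate 1 and at 0 in 2C replicate 2, where GPX4 and PRDX2 were at 8.29 and 72.2 CPM. Markers of cumulus and granulosa cells, mostly STAR and HAS2 and with AMH and INHA at 0, summed to 1006 and 564 CPM at MII and to 1059 and 1718 CPM at 2C, and their part in these differences was not tested.

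At the step from 4C to 8C, when the genome is activated, GPX4 rose and no other member passed the test. Its log2 difference was 2.73 ± 0.64 (adjusted p = 0.00439 from limma), from 4.15 ± 1.95 to 30.8 ± 5.45 CPM (n = 2 each), and 3.04 without 8C replicate 2 (adjusted p = 0.00645). This 1 of 10 members compares with 36.8% of all loci called, 17.7% higher and 19.1% lower. PRDX1 had a log2 difference of -1.54 ± 0.66 (adjusted p = 0.0803 from limma), with 59.0 and 67.0 CPM at 4C above 16.1 and 27.9 CPM at 8C. It was the only member lower at an unadjusted p under 0.05, and 0 members were called lower by limma, edgeR or DESeq2. PRDX2, at 1.19 ± 0.61 (adjusted p = 0.142 from limma), passed without 8C replicate 2 (1.98, adjusted p = 0.0341), and without 8C replicate 1 it was at 0.40 (adjusted p = 0.717). PRDX3 (-1.44 ± 0.98) and PRDX6 (-1.56 ± 0.88) did not pass, nor did SOD1 (-2.25 ± 1.32), SOD2 (-0.61 ± 0.75), CAT (-0.36 ± 0.73), GPX1 (1.34 ± 1.17) and PRDX5 (0.23 ± 0.90), with adjusted p of 0.178 to 0.866 from limma. Without 8C replicate 2 the sign turned for SOD2 (0.60) and CAT (0.46). GPX1 was then at 2.68, PRDX1 at -1.79, SOD1 at -2.58 and PRDX5 at 0.52. Without 8C replicate 1, PRDX3 (-3.22, adjusted p = 0.0186) and PRDX6 (-2.89, adjusted p = 0.0347) passed as lower; in replicate 2, the embryo with oocyte markers, they were at 0 and 1.92 CPM. Without replicate 2 the differences were 0.34 (adjusted p = 0.804) and -0.23 (adjusted p = 0.889).

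Over the whole of EGA, GPX4, GPX1 and PRDX2 rose and no member fell. The log2 difference of GPX4 was 3.58 ± 0.55 (adjusted p = 9.0e-06 from limma), with means of 3.76 ± 3.40 CPM (n = 6) before and 48.5 ± 28.3 CPM (n = 10) after. GPX1 rose by 3.21 ± 0.85 (adjusted p = 0.00228 from limma), from 0.651 ± 0.840 to 36.7 ± 48.9 CPM. Its 8C samples, at 3.71 and 0 CPM, were near the levels before EGA. At no more than 2.00 CPM in any sample before EGA, GPX1 passed the filter only on its samples after EGA. Only a rise could therefore be called for it. PRDX2 rose by 1.47 ± 0.58 (adjusted p = 0.0306 from limma), from 50.3 ± 34.3 to 164 ± 117 CPM, with overlap between the periods, and it lost the call without either MII sample (adjusted p = 0.0848 and 0.11), either BL sample (0.0524 and 0.051), 8C replicate 1 (0.0538) or CM replicate 1 (0.0515) and with no filter on low values (0.0505). The 3 of 9 members tested compare with 66.8% of 6910 loci called, 36.9% higher and 29.9% lower. At an unadjusted p under 0.05, 3 members were higher and 0 lower, and edgeR called 3 higher and DESeq2 5, with 0 lower by either. The members' median log2 difference was 0.48, beside 0.23 over all loci tested, which itself became 0.67 under total-read scaling. PRDX1, at -0.05 ± 0.58 (adjusted p = 0.944 from limma), took a positive sign under total-read scaling (0.42), edgeR (0.59) and DESeq2 (0.55). PRDX3, at 0.82 ± 0.64 (adjusted p = 0.267), passed without 8C replicate 2 (1.28, adjusted p = 0.0131 from limma), and the calls of GPX4, GPX1 and PRDX2 held without it.

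**Figure D3:**
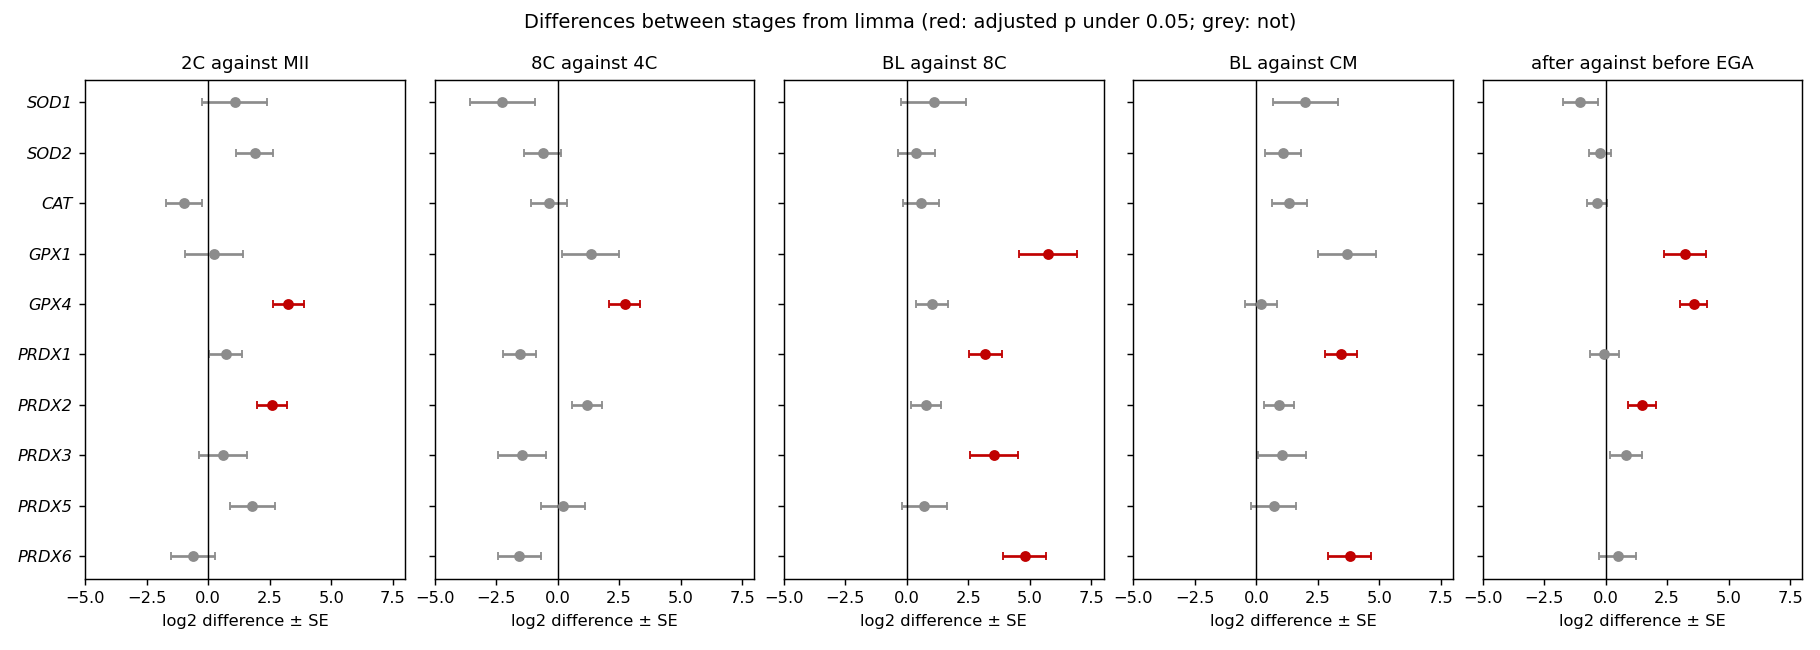
Log2 differences (horizontal axis) of the 10 genes (rows) in 5 comparisons, from limma; points are estimates, bars are ± SE, red marks an adjusted p under 0.05 and grey the others, and PRDX5 was not tested in the last panel. GPX4 is red in the first, second and last panels, and PRDX1 and PRDX6 are red in both panels of BL.

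The blastocyst was compared with 8C, to follow the embryo from activation of its genome to the first separation of cell lineages. PRDX6, GPX1, PRDX1 and PRDX3 rose. The log2 difference was 4.78 ± 0.88 for PRDX6 (adjusted p = 0.00362), 5.73 ± 1.17 for GPX1 (adjusted p = 0.00694), 3.19 ± 0.66 for PRDX1 (adjusted p = 0.00779) and 3.53 ± 0.98 for PRDX3 (adjusted p = 0.0326, all from limma). GPX1 had 215 reads at BL and 3 at 8C, all in replicate 1. Per read sequenced this was a ratio of 77.9 with an exact 95% interval of 26.3 to 381, and without 8C replicate 2 a ratio of 34.1 with an interval of 11.5 to 167. Each interval covers counting error only, and the mean deposited values were 134 and 2.70. The 4 of 10 members compare with 10.1% of all loci called, 6.44% higher and 3.63% lower. No member fell by limma, edgeR or DESeq2, with 0 lower at an unadjusted p under 0.05. Without 8C replicate 2 PRDX6 (3.45, adjusted p = 0.0348) and PRDX1 (3.43, adjusted p = 0.0253) kept the call, and GPX1 (4.39, adjusted p = 0.0591) and PRDX3 (1.75, adjusted p = 0.257) lost it. GPX1 also lost it without BL replicate 2 (adjusted p = 0.0732 from limma). In a fit on the samples of these 2 stages alone, PRDX6 (0.0668), GPX1 (0.053) and PRDX3 (0.198) lost the call. PRDX3 also lost it under edgeR (adjusted p = 0.107) and DESeq2 (0.0513), with no filter (0.0527), without either BL sample (0.213 and 0.0865), 4C replicate 1 (0.0516) or EM replicate 1 (0.0504), and the call of PRDX1 was lost without either BL sample (0.0521 and 0.0728).

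GPX4 and PRDX2 had log2 differences of 1.01 ± 0.64 (adjusted p = 0.356 from limma) and 0.76 ± 0.61 (adjusted p = 0.479) between BL and 8C. SOD1 (1.08 ± 1.32), SOD2 (0.38 ± 0.75), CAT (0.58 ± 0.73) and PRDX5 (0.71 ± 0.90) did not pass either. Without 8C replicate 2 the difference turned for SOD2 (-0.84), CAT (-0.24) and PRDX2 (-0.026), and was 0.69 for GPX4, 1.41 for SOD1 and 0.42 for PRDX5. The difference between these genes and those that rose was not tested.

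BL was also compared with CM, the stage just before it; this comparison was added after the levels at BL had been seen, and its differences are therefore a description with a test attached and not independent evidence. PRDX1 and PRDX6 were called higher. PRDX1 went from 20.6 ± 9.98 to 249 ± 17.6 CPM (n = 2 each), a log2 difference of 3.45 ± 0.66 (adjusted p = 0.00627 from limma). PRDX6 went from 16.0 ± 13.6 to 215 ± 19.6 CPM, a log2 difference of 3.79 ± 0.88 (adjusted p = 0.0213). These 2 of 10 compare with 4.42% of all loci called, 2.92% higher and 1.5% lower. GPX1 had a difference of 3.69 ± 1.17 with an adjusted p of 0.0922 from limma. It depended on the 2 unlike CM embryos, with 5.55 without CM replicate 1 (adjusted p = 0.0239) and 1.84 without CM replicate 2 (adjusted p = 0.64). The call of PRDX1 was lost without BL replicate 2 (adjusted p = 0.0774) or CM replicate 2 (0.106), and that of PRDX6 without either BL sample (0.108 and 0.16) or CM replicate 2 (0.252). No member was called lower by limma, edgeR or DESeq2, and 0 were lower at an unadjusted p under 0.05. Over the same step the keratin KRT8, a marker of the epithelial outer layer of the blastocyst, went from 28.7 and 0 CPM at CM to 525 and 503 CPM at BL, and its part in these differences was not tested.

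The genes that work with these enzymes were taken in 9 lists of 87 genes, of which 85 were found and 37 had enough reads for the comparison across EGA. Of the 37, 17 rose and 13 fell, 81.1% in either direction beside 66.8% of all loci and 3 of 9 members. Their median log2 difference was 0.72. Over all loci 36.9% were called higher and 29.9% lower. The share of calls that were higher was 55.2%, or 64.3% under total-read scaling and 47.7% with no filter on low values. A gene almost without reads before EGA could pass the filter only on its samples after EGA, so it could only be called higher. Likewise a gene almost without reads after EGA could only be called lower. Differences of the list genes are log2 differences ± SE after against before EGA, and levels are CPM ± SD. None of the 8 genes SOD3, CCS (the copper chaperone of SOD1), GPX2, GPX3, GPX5, GPX6, GPX7 and GPX8 and none of the 9 sources of reactive oxygen found (NADPH oxidases, dual oxidases, xanthine dehydrogenase and monoamine oxidases) had enough reads to be tested. The highest values in a sample were 27.0 CPM for GPX8, a peroxidase of the endoplasmic reticulum, and 69.5 CPM for the NADPH oxidase NOX4, both after EGA. SOD3 was listed at 0 throughout, as were IDH2, GLRX, GSTA2, MAFK, CYBA and CYBB, and so was the oocyte gene BMP15, so a value of 0 in the table can be a failed count.

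In the thioredoxin system, which returns oxidised peroxiredoxins to use, 6 of 7 tested genes rose (median log2 difference 1.95). TXN, the cytosolic thioredoxin, was at 2.95 ± 3.06 CPM before EGA (n = 6) and 104 ± 72.9 CPM after (n = 10), with a log2 difference of 4.46 ± 0.57 (adjusted p = 8.16e-07 from limma). TXN2, its mitochondrial counterpart, was at 0.0493 ± 0.121 and 20.9 ± 7.28 CPM, with a difference of 4.43 ± 0.36. PRDX4, the peroxiredoxin of the endoplasmic reticulum, rose by 2.76 ± 0.52, from 3.74 ± 2.94 to 41.2 ± 37.4 CPM. TXNIP, an inhibitor of thioredoxin, had a difference of 0.80 ± 0.75 (adjusted p = 0.357). For both thioredoxins, the lowest sample after EGA (9.62 CPM for TXN, 9.90 CPM for TXN2) was above the highest before it (8.65 and 0.296 CPM).

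All 3 tested genes of glutathione synthesis and recycling were called lower after EGA, although GSR was not low at every later stage. The glutathione peroxidases GPX1 and GPX4 rose. GCLC, the catalytic subunit of the rate-limiting enzyme of glutathione synthesis, went from 147 ± 68.4 to 38.7 ± 30.1 CPM (log2 difference -2.67 ± 0.43, adjusted p = 1.64e-05 from limma). GGCT, an enzyme of glutathione breakdown, went from 35.9 ± 21.1 to 4.83 ± 6.87 CPM (-3.74 ± 0.65). GSR, which reduces oxidised glutathione, went from 52.9 ± 25.4 to 26.7 ± 22.8 CPM (-1.83 ± 0.53). Its stage means were 42.9 CPM at MII, 78.5 CPM at 2C and 37.3 CPM at 4C. After EGA they were 5.64 CPM at 8C, 52.0 CPM at 16C, 22.1 CPM at EM, 7.62 CPM at CM and 45.8 CPM at BL. GCLM, GSS, SLC7A11 and GGT1 had too few reads to be tested. Of the cumulus and granulosa cell markers, HAS2 fell from 174 ± 101 to 2.99 ± 6.49 CPM (-6.96 ± 0.71) across EGA. STAR fell from 1164 ± 473 to 617 ± 133 CPM (-1.30 ± 0.31). Means of PTX3, FSHR and CYP19A1 were also lower after EGA, while those of HSD3B1 (0.690 to 9.12 CPM) and TNFAIP6 (0 to 0.706 CPM) were higher. The summed markers were 1818 and 1986 CPM at 4C and 602 and 627 CPM at BL. The part of these markers in the results across EGA was not tested. Among the glutaredoxins and glutathione transferases 2 of 7 rose and 2 fell (median 0.60). GSTP1 rose by 3.48 ± 0.75 and GLRX3 by 1.99 ± 0.51. GSTP1 was at most 1.18 CPM in any sample before EGA, so only a rise could be called. It had enough reads in 10 of 16 fits with 1 sample left out. MGST2 (-4.04 ± 0.82) and GSTM3 (-3.20 ± 0.75) fell, but MGST2 was at 22.6 and 30.8 CPM at BL, beside 18.1 and 23.4 CPM at 4C.

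NADPH supplies the electrons for both systems, and of 5 tested genes of its supply 2 rose and 2 fell (median -0.56). IDH1, the cytosolic isocitrate dehydrogenase, rose by 3.16 ± 0.48 and PGD, an enzyme of the pentose phosphate pathway, by 1.17 ± 0.36. The malic enzyme ME1 fell from 29.4 ± 24.4 to 0.147 ± 0.464 CPM (-5.04 ± 0.41) and NADK2, the mitochondrial NAD kinase, from 99.4 ± 67.9 to 7.78 ± 6.83 CPM (-4.37 ± 0.62). In the list for the machinery that inserts selenocysteine, 2 of 4 rose and 1 fell (median 0.57). A place in the list does not mean that GPX1 or GPX4 needs the gene. SEPHS1 rose by 3.68 ± 0.53 and SEPHS2, a selenophosphate synthetase, by 1.67 ± 0.37, while SEPSECS, which makes selenocysteine on its tRNA, had a difference of -2.86 ± 0.58 and fell.

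NFE2L2 encodes NRF2, the transcription factor that activates many antioxidant genes, and KEAP1 holds it in check. In that pathway 4 of 7 tested genes rose and 2 fell (median 2.28). NFE2L2 rose by 3.35 ± 0.58, from 8.93 ± 7.75 to 109 ± 80.6 CPM, KEAP1 by 2.33 ± 0.50, and FTH1, the ferritin heavy chain, by 2.67 ± 0.48. The small MAF protein gene MAFG (-2.56 ± 0.73) and SQSTM1, which binds KEAP1 (-1.31 ± 0.48), fell, the latter no longer under total-read scaling (-0.83, adjusted p = 0.128 from limma) or without MII replicate 1 (-1.08, adjusted p = 0.0655) or MII replicate 2 (-1.02, adjusted p = 0.0695). Of the sestrins, which are induced by stress and restrain growth signalling, all 3 fell: SESN2 from 672 ± 403 to 62.1 ± 29.8 CPM (-3.77 ± 0.44), SESN3 by a log2 difference of -4.40 ± 0.51 and SESN1 by one of -2.79 ± 0.63. They make up 3 of the 4 tested genes of their list (median -3.28), and PARK7, which encodes the redox-sensitive protein DJ-1, rose by 2.60 ± 0.77.

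**Figure D4:**
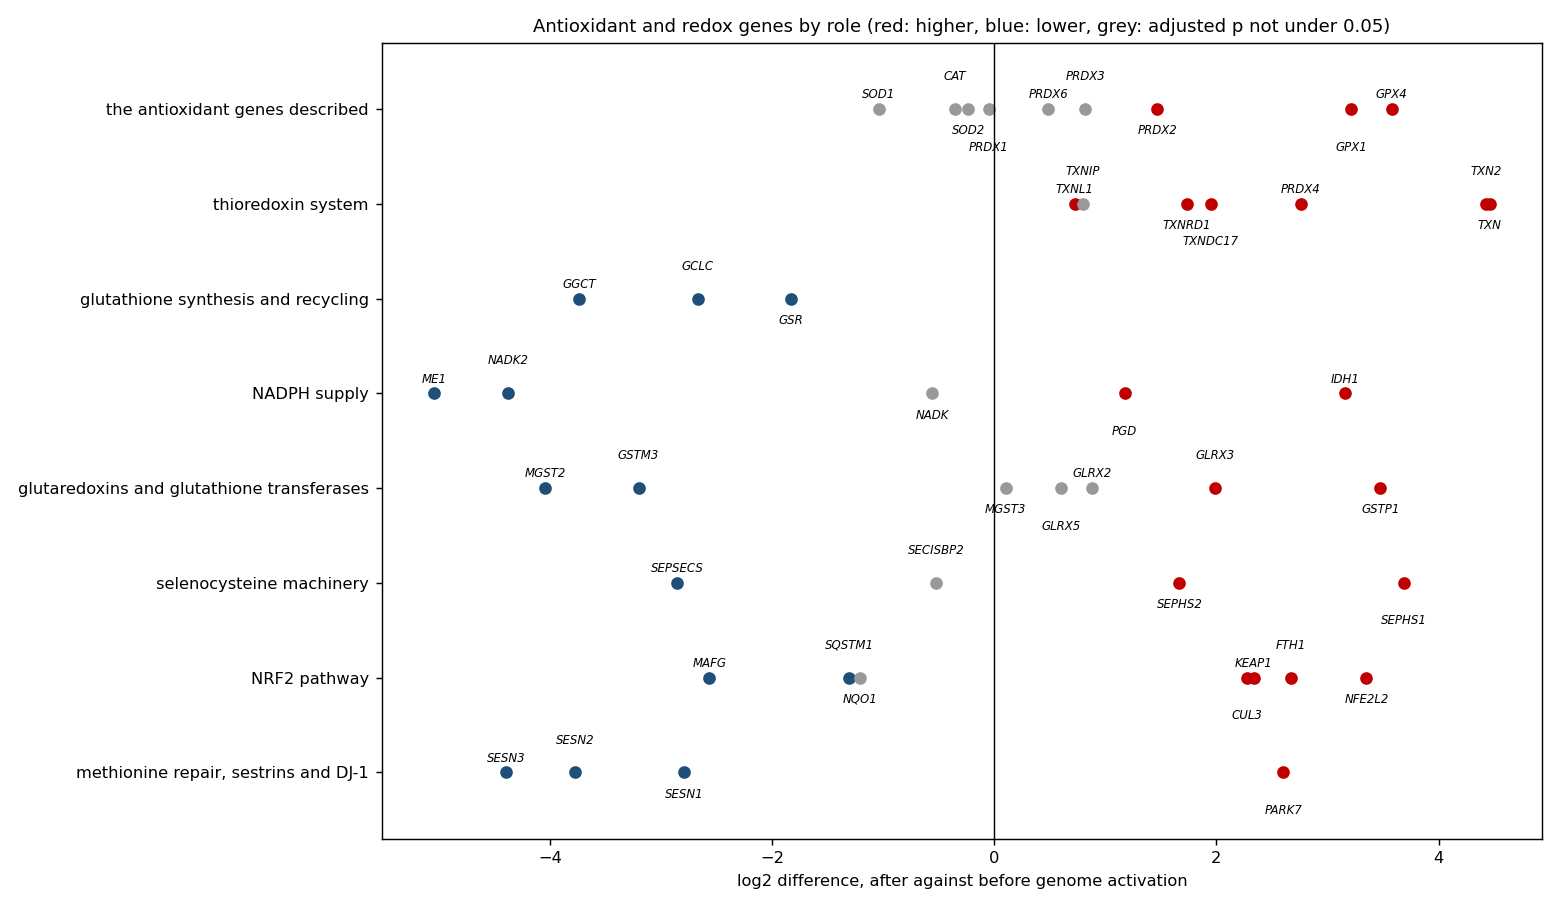
Log2 difference after against before EGA (horizontal axis) of each tested gene of the pathway lists and of the 9 antioxidant genes tested (rows are lists); each point is 1 gene, red where it rose, blue where it fell and grey where the adjusted p was not under 0.05. The points of the thioredoxin system lie above 0 and those of glutathione synthesis and recycling below it.

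For each member the named loci with the most similar course over the 8 stage means were searched, by the root mean square (RMS) difference of the centred log2 values. The closest match of all was SOD2 with EPB41L4A (RMS difference 0.175), followed by CAT with PRKD3 (0.187). PRDX5 lay closest to LPAR2 (0.258), PRDX3 to MRPS36, a mitochondrial protein gene (0.264), and PRDX2 to TEAD3, a transcription factor gene (0.278). PRDX1 lay closest to SRD5A3 (0.299), GPX4 to SUCLG1, a subunit of a citric acid cycle enzyme (0.335), SOD1 to ITCH (0.384), PRDX6 to STMN1, which regulates microtubules (0.389), and GPX1 to GAS8 (0.627). The second in each list were LMBRD1 for SOD1 (0.423), KIAA0564 for SOD2 (0.277), EIF3E for CAT (0.269), PTGR1 for GPX1 (0.643), EIF3I for GPX4 (0.375), BCKDHB for PRDX1 (0.354), SH3BGRL3 for PRDX2 (0.343), CPPED1 for PRDX3 (0.332), C7H19orf29 for PRDX5 (0.283) and PFKFB3 for PRDX6 (0.423). GPX1 was the member with the least similar partner.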

How the data were processed

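RNA-Seq values of single bovine oocytes and embryos (2 at each of 8 stages) were used. The authors isolated total RNA, amplified it in 2 rounds and sequenced it; the submitters' processing notes name cutadapt, FastQC, TopHat, Cufflinks and HTSeq, while versions, genome build and the rule for multiply mapped reads are not given in the sources used here. The deposited values are a signal per locus, read counts divided by a size factor for each library. In each library the values above 0 were multiples of the smallest one (tolerance 0.01 reads), and dividing by it gave whole reads. Libraries held a median of 1347534 reads. CPM were computed from these reads.

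The main test was limma 3.58.1 under R 4.3.3 (eBayes with a trend) on log2(deposited value + 1), a scale that understates changes of low genes, with edgeR's filterByExpr (edgeR 4.0.16) and Benjamini-Hochberg adjustment at 0.05, over 9670 loci for the 8 stages and 6910 for the 2 periods. edgeR and DESeq2 1.42.0 on the recovered reads, other scalings, pseudocounts and filters, a replicate block and leaving out each of 16 samples were alternatives. BL against CM was added after values were seen. Scripts were tested on simulated data. All members were named. From each pathway list, up to 3 genes with the largest rise and 3 with the largest fall across EGA among those past the threshold were named, and for each member the 2 closest named loci. TXNIP, GPX8, NOX4, OVGP1, KRT8, HAS2, STAR, IFNT2, GATA6 and the genes listed at 0 were singled out after their values were seen. Of the 87 list genes, 83 were found by name and 2 by synonym through RefSeq gene names of ARS-UCD2.0, from which no coordinates were taken. Members and lists were chosen with earlier results of these data known. The samples of a stage are 2 individuals as far as the labels show, and p-values measure only the spread between such libraries. Limits of 3 reads and exact intervals cover counting error only, because copies made by amplification could not be recognised.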

Additional observations from a re-analysis of the deposited data

Results flagged for a closer look

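Across 20 groups of samples (each member before and after EGA), 2 held a sample far from the others. The rule assumes samples of 1 population, while these groups mix stages, so no number of groups is given for chance. SOD1 was at 62.6 CPM in 16C replicate 1, the highest of the 10 samples after EGA, with the next at 19.6 CPM and the gap taking 0.709 of the range. PRDX6 was at 26.4 CPM in 4C replicate 1, the highest of the 6 samples before EGA, with the next at 11.7 CPM and the gap taking 0.684 of the range.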

How the results depend on the processing

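Across other scalings, pseudocounts, filters, tools and sample choices, the members called across stages numbered 5 to 7 beside 5, for 8C against 4C 1 beside 1, and for BL against CM 2 to 3 beside 2. For 2C against MII the 2 calls became 0 with only the 2 stages compared or a pseudocount of 5, and 1 with edgeR or no filter. For BL against 8C the 4 calls became 1 with only the 2 stages compared, a fit on 4 samples in which PRDX6, GPX1 and PRDX3 lost the call. Across EGA the 3 calls became 5 under DESeq2, which also called PRDX3 (adjusted p = 0.0355) and PRDX6 (0.0427). Leaving out 1 of 16 samples gave 4 to 6 calls across stages, 2 to 4 across EGA, 0 to 2 for 2C against MII, 1 to 3 for 8C against 4C, 1 to 4 for BL against 8C, 0 to 3 for BL against CM, and 28 to 30 pathway genes beside 30. The stage effects of GPX4, GPX1, PRDX2 and PRDX1, the calls of GPX4 across EGA and at 8C, and that of PRDX6 for BL against 8C held in all 16 of these fits. With a replicate block, 1 call remained for 2C against MII and PRDX5 passed across stages (adjusted p = 0.0438), with no other member's call changed. Same-numbered samples are different individuals, and the correlation of their deviations was over 0.1 in 1 of 28 pairs of stages (-0.26 to 0.13), so the numbers do not pair the samples. Over all loci, the calls for 2C against MII numbered 137, 44 under edgeR, 360 under DESeq2 and 551 under total-read scaling. With only the 2 stages compared, 0 of 6573 loci were called for 2C against MII. For BL against 8C the calls numbered 974, 339 under edgeR and 165 with only the 2 stages compared. Leaving out 1 sample also changed the calls over all loci for 2C against MII, BL against 8C and BL against CM. They were fewer in some of these fits and more in others. No call reversed. The sign of differences that had not passed turned across EGA for PRDX1 (0.55 under DESeq2, 0.59 under edgeR, 0.42 under total-read scaling), SOD2 (0.21) and CAT (0.10, both total-read scaling); for 2C against MII in SOD1 (-0.71 under DESeq2, -0.46 under edgeR), GPX1 (-0.094 under DESeq2) and PRDX6 (0.20 under total-read scaling); and for BL against 8C in SOD2 (-0.041 under DESeq2, -0.14 under edgeR) and BL against CM in GPX4 (-0.0042 under TMM, -0.031 under edgeR). With 1 sample left out, signs turned within these ranges: across EGA PRDX1 -0.30 to 0.13; 2C against MII SOD1 -1.72 to 3.89, GPX1 -0.79 to 1.27 and PRDX3 -0.029 to 1.22; 8C against 4C SOD2 -1.82 to 0.60, CAT -1.17 to 0.46, PRDX3 -3.22 to 0.34 and PRDX5 -0.056 to 0.52; BL against 8C SOD2 -0.84 to 1.59, CAT -0.24 to 1.40 and PRDX2 -0.026 to 1.55; BL against CM GPX4 -0.34 to 0.72 and PRDX5 -0.091 to 1.498. The cause of these changes was not tested. Depth limits GPX1 and PRDX5, with at most 3 reads in 9 and 5 libraries.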
